A study of Solanum lycopersicum x Solanum pennellii and Solanum lycopersicum with 21 samples.

Results

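Anthers of the tomato introgression line IL-1_1_3 were set against anthers of M82, the domesticated parent, with all 3 arrays titled IL-1_1_3 and all 6 arrays titled Pollen Control M82. These are 9 of the 21 arrays of the series, and every probe set of the Affymetrix tomato array was a member, with or without a gene name, apart from the hybridisation controls, whose names start with AFFX. Of the 10101 probe sets tested, 909 carried 1 gene symbol in the platform's annotation, for 802 genes, and 9192 carried none. An introgression line is a plant of the domesticated background that carries a defined chromosome segment of a wild relative, here Solanum pennellii. By the naming of these lines, the first number in the name is the chromosome that holds the segment.

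All groups were grown in a greenhouse, and total RNA was taken from anthers 1 day before the flower opened. The line is named IL-1_1_3 in the titles and IL-1_1 in the line characteristic. In the series design the lines are termed hybrids. Neither it nor the labels state how many copies of the segment a plant carried. Whether each array stands for its own plant is not stated either, and p-values here reflect array-to-array spread that may be technical. Another 3 lines with 4 arrays each, IL-8_1_1, IL-4_2 and IL-7_2, share the M82 arrays and were used to measure the spread and to ask which differences set IL-1_1_3 apart from them as well.

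The anther is the pollen-bearing organ of the flower. On the day before opening, its pollen is nearly mature, its wall is drying and will split, and its inner nurse layer, the tapetum, has broken down. A probe set is a group of short probes that read 1 transcript or, in some, several similar ones. Its value here is a log2 level, so that a difference of 1 is a 2-fold difference. A level of one probe set cannot be set against that of another. The probes were designed largely on domesticated tomato, so a transcript copied from a wild allele that binds them less well and a transcript that is less abundant give the same reading and cannot be told apart. Likewise, in whole anthers fewer cells of a type and less RNA per cell cannot be told apart. No detection calls are in the table used here, so a low value carries no bound.

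The labelled tissue was checked against its markers. The pollen genes Shy, PRK1 and PRK2 were bright in both groups. Shy, a pollen gene for a leucine-rich repeat protein, had levels of 14.08, 14.14 and 13.99 in IL-1_1_3 anthers, against a lowest, median and highest level of 13.90, 14.04 and 14.13 in M82 anthers. The stamen identity genes TPI, TDR6, AG1 and TAGL1 had mean levels over the 4 genes of 12.60, 12.55 and 12.76 on the IL-1_1_3 arrays and of 12.28 to 12.63 on the M82 arrays. None of the 7 pollen markers and none of the 4 stamen markers was called different. Stig1, a gene of the stigma whose product binds a pollen receptor and which was listed with the pollen markers, was dim in both groups, at 4.30, 4.27 and 5.29 in IL-1_1_3 and 4.12 to 4.36 in M82. No marker of the tapetum or anther wall carried a symbol in the annotation.

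M82 array 3 stood apart from the other M82 arrays. Its values fell outside the range of the other 5 M82 arrays at 55.9% of probe sets, against 21.9% to 31.5% for each of those arrays. The root mean square deviation of array 3 from the mean of the other M82 arrays was 0.48. For each of the other M82 arrays, measured in the same way, it was 0.32 to 0.357. Measured against the range of the M82 arrays, IL-1_1_3 arrays 1, 2 and 3 fell outside at 27.7%, 49.4% and 40.7% of probe sets. Array 1 of the line therefore lay closer to M82 than arrays 2 and 3 did. Arrays of the same group correlated across probe sets at 0.9904 to 0.9933 within IL-1_1_3 and at 0.9699 to 0.9961 within M82.

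IL-1_1_3 anthers differed from M82 anthers at 199 probe sets, 95 higher and 104 lower, out of 10101 (limma, Benjamini-Hochberg adjusted p of 0.05 or less, which is what "called" means throughout). That is 1.97% of all probe sets, 0.941% higher and 1.03% lower. Called decreases were deeper than called increases. The median log2 difference of the probe sets called lower was -0.88, and that of the probe sets called higher was 0.53. At least a 2-fold difference was reached by 54 called probe sets (0.535%), of which 44 were lower and 10 higher. Within the calls were 33 probe sets, 29 lower and 4 higher, that also differed in the same direction from each of the 3 other lines. Taken line by line, 58 of the 199 were also called against IL-4_2, 73 against IL-7_2 and 44 against IL-8_1_1, where 1.67%, 3.27% and 1.48% of all probe sets were called in those comparisons. Of the 199, 99 were called against none of the other lines.

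The number of calls rested on single arrays. Left out in turn, IL-1_1_3 arrays 1, 2 and 3 gave 88, 43 and 64 calls. M82 arrays 1, 2, 4, 5 and 6 gave 126, 95, 142, 84 and 61. Without M82 array 3 there were 587 calls, 252 higher and 335 lower. With a cyclic loess normalisation on top of the deposited values the split was 58 higher and 115 lower, so that 33.5% of calls were higher, against 47.7% as deposited. More probe sets were called higher than lower with the IL-1_1_3 and M82 arrays alone (49 higher, 37 lower) and with an unmoderated test (92 and 89). The same held with array weights (1267 and 1258) and with the score of each array on the within-group component as a covariate (103 and 95).

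**Figure D1:**
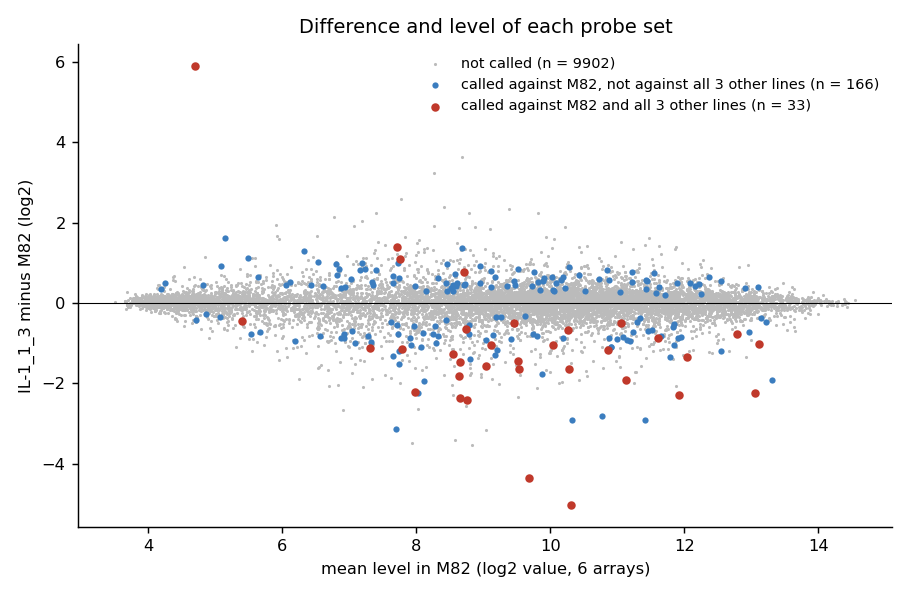
Log2 difference of every probe set (IL-1_1_3 mean minus M82 mean, vertical axis) against its mean log2 level in M82 (horizontal axis), with the 166 probe sets called against M82 but not all other lines in blue and the 33 called against all in red. Most points lay within 0.5 of 0, and the 33 probe sets that differed from all other groups reached from -5.02 to 5.90.

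Across all probe sets, called or not, the differences were small and nearly centred. The median log2 difference was 0.03, the quartiles were -0.16 and 0.17, and 54.6% were above 0. The tails were uneven. At the quantile of 0.01 the difference was -1.36, and at the quantile of 0.99 it was 1.0. Regardless of any test, 220 probe sets were at least 2-fold lower in measured level and 103 at least 2-fold higher. The share called grew with size, at 0.0303% of the 6591 probe sets under 0.25, 2.38% of 2184 between 0.25 and 0.5, 9.07% of 1003 between 0.5 and 1, 14.4% of 284 between 1 and 2, and 33.3% of 39 at 2 or more.

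The direction of the calls changed with their size. Between 0.25 and 0.5, 38 probe sets were called higher and 14 lower. Between 0.5 and 1 the counts were 45 higher and 46 lower. From 1 to 2 they were 9 higher and 32 lower, and at 2 or more 1 was higher and 12 lower. The smallest difference called was 0.21 on the log2 scale, and the standard error of a called difference had a median of 0.092 between 0.25 and 0.5 and of 0.301 at 2 or more. A further 359 probe sets had an adjusted p between 0.05 and 0.1, 193 with a positive and 166 with a negative difference.

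**Figure D2:**
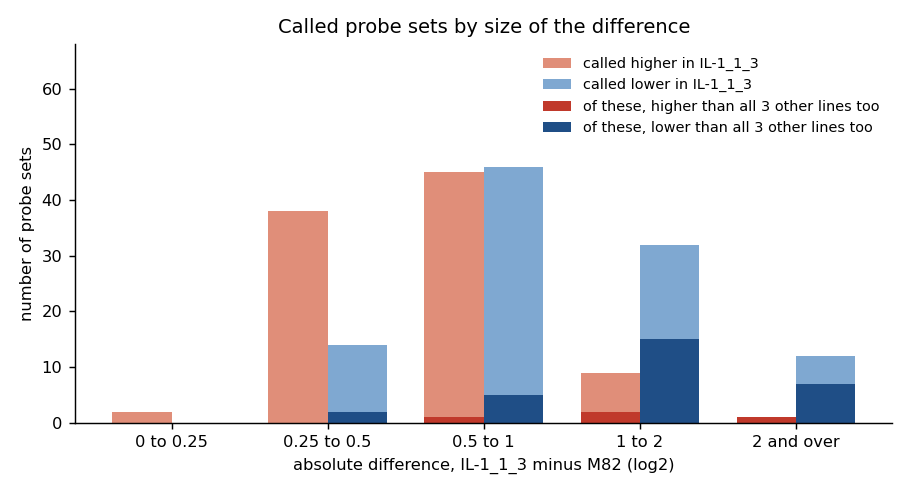
Number of called probe sets (vertical axis) by absolute log2 difference (horizontal axis), higher and lower in IL-1_1_3 side by side, with those also called against the 3 other lines in the darker shade. Calls between 0.25 and 0.5 were mostly higher (38 against 14), and calls of 1 to 2 mostly lower (9 against 32).

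Calls came from all levels of expression and from both naming classes of the array. Probe sets were split into 4 classes of equal size by their M82 mean level, at 7.13, 9.53 and 11.07. From the dimmest class to the brightest, 20, 37, 20 and 18 probe sets were called higher and 13, 45, 18 and 28 lower. Probe sets with the prefix Les gave 50 higher and 64 lower calls among 5870 (1.94%), and those with the prefix LesAffx gave 45 higher and 40 lower among 4168 (2.04%). None of the 63 reporter probe sets, which read no tomato gene, was called. Probe sets with a gene symbol were called at 1.98% (18 of 909) and those without at 1.97% (181 of 9192), so most of what follows first has no gene name.

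The increase at Les.840.1.A1_at, an unnamed probe set, was the largest difference of the comparison. Its level was 11.63, 9.53 and 10.63 in IL-1_1_3 anthers, against a lowest, median and highest level of 4.35, 4.65 and 5.20 in M82 anthers. The groups lay far apart, with M82 at the dim end of the array and IL-1_1_3 among well-lit probe sets. The difference was 5.90 ± 0.30 on the log2 scale (SE; adjusted p = 2.52e-10, limma), a ratio of 59.6. It also differed in the same direction from all 3 other lines.

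LesAffx.67882.1.S1_at showed the mirror image. Its level was 5.52, 5.47 and 4.90 in IL-1_1_3 anthers, against 10.01, 10.36 and 10.51 (lowest, median, highest) in M82 anthers. The groups were again far apart, with a difference of -5.02 ± 0.18 and a ratio of 32.4. Les.2320.1.A1_at was 5.65, 5.55 and 4.85 in the line, against 9.52, 9.70 and 9.85 in M82, a difference of -4.34 ± 0.15 and a ratio of 20.3. On both of these probe sets every IL-1_1_3 array read near the dim end while the M82 arrays varied little. Their adjusted p was 1.38e-12 each (limma).

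A second tier of decreases was smaller. LesAffx.14638.1.S1_at read 6.40, 6.14 and 6.46 in IL-1_1_3, against 8.51, 8.79 and 8.86 in M82 (-2.42 ± 0.13). LesAffx.55283.1.S1_at read 6.47, 6.12 and 6.29 in the line, against 8.44, 8.65 and 8.88 (-2.36 ± 0.14). Les.323.1.S1_at read 9.68, 9.73 and 9.51, against 11.56, 11.87 and 12.43 in M82 (-2.29 ± 0.19). All 3 were more than 4-fold lower, and only Les.323.1.S1_at stayed above the dimmest class of levels in the line. The groups did not overlap, as in 100 of all 104 called decreases. All 3 arrays of the line lay below all 6 M82 arrays at 3.94% of all probe sets. LesAffx.124.1.S1_at read 6.01, 5.88 and 5.49, against 6.67, 8.25 and 8.87 in M82 (-2.25 ± 0.37), where M82 array 3 gave the lowest M82 value. It was called against none of the other lines, and each of them was itself lower than M82 there, by -1.37 in IL-4_2, -1.60 in IL-7_2 and -2.001 in IL-8_1_1 (adjusted p = 0.0415, 0.00968 and 0.00174, limma).

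Some transcripts stayed bright in the line in spite of a called decrease. LesAffx.62967.1.S1_at had a mean level of 10.82 in IL-1_1_3 and 13.06 in M82, and Les.4798.1.S1_at had 12.09 in IL-1_1_3 and 13.11 in M82. These 2 were singled out after their values were seen. Of the 29 decreases that also held against the other lines, 2 exceeded 4 on the log2 scale, 5 lay between 2 and 4, 15 between 1 and 2, 5 between 0.5 and 1, and 2 under 0.5. In 9 of the 29 the mean level in IL-1_1_3 was under 7.13, the upper limit of the dimmest class.

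Several probe sets share the start of their name, which on this array marks probe sets of one transcript cluster. Les.2500.1.S1_at and Les.2500.2.S1_at were both lower, by -1.65 ± 0.12 and -1.90 ± 0.08, and Les.3222.1.A1_at and Les.3222.2.S1_at were lower by -1.44 ± 0.14 and -1.46 ± 0.08. LesAffx.11805.1.S1_at was lower by -1.57 ± 0.10, while LesAffx.11805.1.A1_at, at 4.71 in IL-1_1_3 and 4.75 in M82, was not called (-0.05 ± 0.07, adjusted p = 0.721). The 33 probe sets thus stand for fewer clusters than their number.

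**Figure D3:**
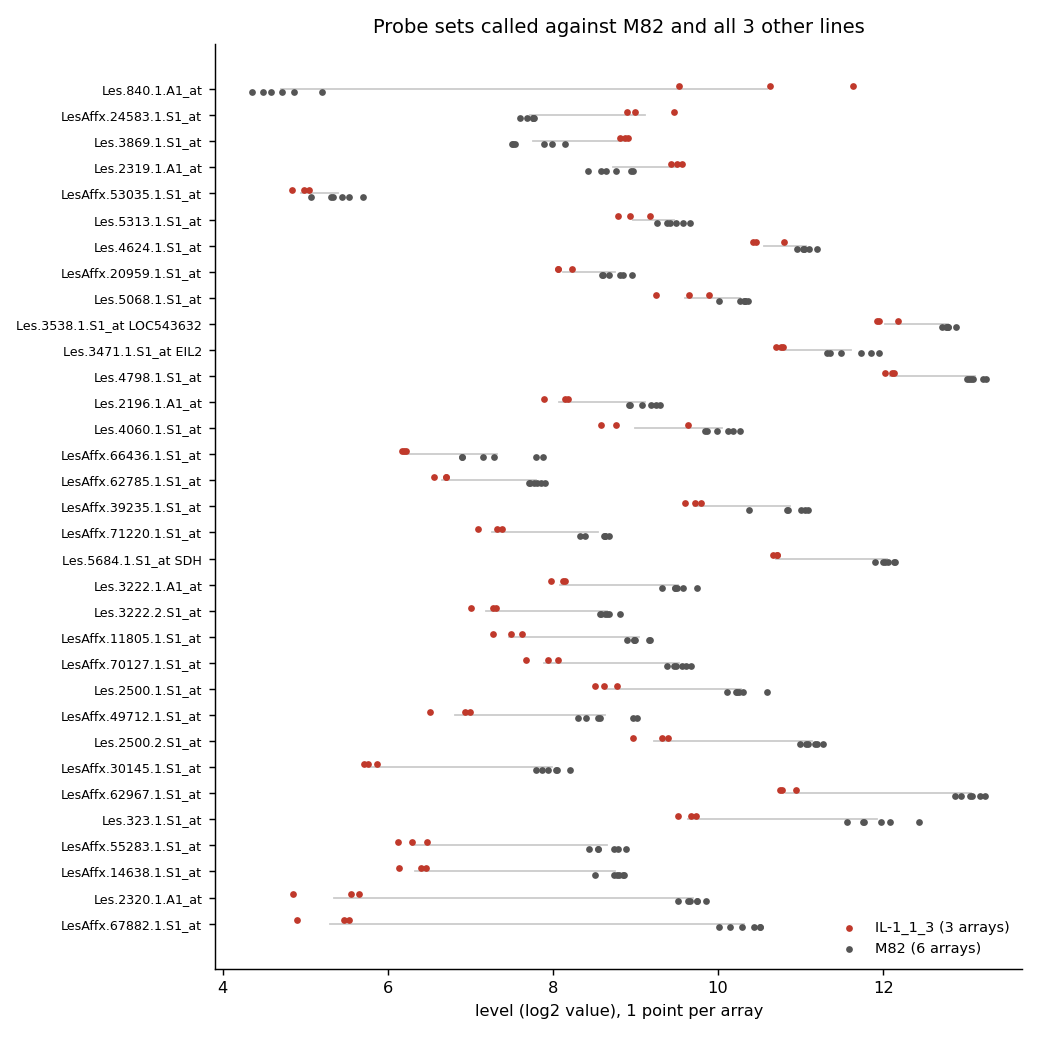
Log2 level (horizontal axis) of the 33 probe sets called against M82 and against the 3 other lines (rows, ordered by difference), 1 point per array, with a grey line joining the group means. The 3 IL-1_1_3 arrays (red) lay below all 6 M82 arrays (grey) in 29 rows and above them in 4.

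The 33 were measured about as closely as the rest of the array. Their median SE was 0.127, against 0.134 over all probe sets and 0.144 for the other 166 calls. In IL-4_2 the 33 lay between -0.14 and 0.82 from M82 on the log2 scale, in IL-7_2 between -0.45 and 0.43, and in IL-8_1_1 between -0.27 and 0.52, with 1, 1 and 0 of them called against M82. The choice of the 33 itself keeps the other lines away from IL-1_1_3. These comparisons share the M82 arrays, and those of IL-1_1_3 with the other lines share its 3 arrays. Across all probe sets, the combined rule took 0.327%, 0.0396% higher and 0.287% lower.

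Within the 33, single arrays differed in how far they stood off. Les.4060.1.S1_at read 8.58, 9.64 and 8.76 in IL-1_1_3, against 9.84, 10.06 and 10.26 (lowest, median, highest) in M82, so that array 2 of the line came close to M82 while arrays 1 and 3 did not. LesAffx.66436.1.S1_at showed the reverse, with 6.17, 6.20 and 6.22 in the line and a wide spread of 6.90, 7.21 and 7.87 in M82. LesAffx.30145.1.S1_at was tight in both groups, at 5.76, 5.87 and 5.71 in IL-1_1_3 against 7.80, 7.99 and 8.20 in M82 (-2.20 on the log2 scale). Of the 4 increases, Les.3869.1.S1_at read 8.82, 8.87 and 8.91 in the line, against 7.50, 7.71 and 8.15 in M82. At the dim end LesAffx.53035.1.S1_at read 4.98, 4.83 and 5.04 in the line, against 5.07, 5.39 and 5.70, the smallest gap of the 33. These 5 were singled out after their values were seen.

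The other increases among the largest were moderate. LesAffx.24583.1.S1_at read 8.99, 8.90 and 9.46 in IL-1_1_3, against 7.60, 7.76 and 7.77 in M82 (1.39 ± 0.10, adjusted p = 2.13e-08, limma). Les.2063.1.A1_at read 10.09, 10.21 and 9.88 in the line, against 8.34, 8.73 and 8.90 (1.37 ± 0.14). There IL-4_2 and IL-8_1_1 were themselves called higher than M82, by 1.38 and 0.87. Les.2164.1.A1_at read 6.82, 7.42 and 6.07, against 4.43, 5.08 and 5.74 (1.62 ± 0.31), with arrays of the line spread over more than a 2-fold range. LesAffx.42534.1.S1_at (1.28 ± 0.26) and LesAffx.37714.1.A1_at (1.13 ± 0.24) completed the 6 largest increases. At LesAffx.37714.1.A1_at, IL-4_2 and IL-8_1_1 were called higher than M82 as well, by 0.89 and 0.91. In all 6 the groups did not overlap, as in 93 of all 95 called increases. All 3 arrays of the line lay above all 6 M82 arrays at 7.46% of all probe sets.

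Small differences were called where the arrays agreed closely. Les.4290.1.S1_at, among the brightest probe sets, read 13.50, 13.52 and 13.49 in IL-1_1_3, against 13.00, 13.08 and 13.23 in M82 (0.41 ± 0.06). It was called against none of the other lines. Each of them was itself higher than M82 there, by 0.46 in IL-4_2, 0.36 in IL-7_2 and 0.43 in IL-8_1_1 (adjusted p = 1.04e-05, 2.71e-04 and 3.36e-05, limma). LesAffx.6721.1.S1_at (0.61 ± 0.08), Les.5829.1.S1_at (0.61 ± 0.09) and Les.2319.1.A1_at (0.78 ± 0.12) were also higher by less than 2-fold. On the other side LesAffx.65306.1.S1_at (-0.76 ± 0.08), Les.4399.2.S1_at (-0.84 ± 0.14), Les.4624.1.S1_at (-0.50 ± 0.08) and LesAffx.20959.1.S1_at (-0.64 ± 0.11) were lower. At LesAffx.65306.1.S1_at the other lines were called lower than M82 too, by -0.54 in IL-4_2, -0.43 in IL-7_2 and -0.57 in IL-8_1_1. Of these lines, IL-1_1_3 was called against IL-7_2 alone. Les.4290.1.S1_at and Les.4386.2.S1_at (0.37 ± 0.08) had the highest M82 levels of the probe sets called higher. On the lower side these were Les.2946.2.S1_at, at 11.95, 10.80 and 11.46 in IL-1_1_3 against 11.98, 13.52 and 13.91 in M82 (-1.91 ± 0.42), and Les.4399.1.A1_at (-0.46 ± 0.10). For Les.2946.2.S1_at the lowest M82 level was that of array 3, only just above the line.

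Among named genes, 16 were called, through 18 probe sets: 11 genes lower and 5 higher. The decreases took in SDH, EIL2, XTH16, POR2, CAB6A, CRTL-E-1, SODCP.2 and 4 genes with a LOC symbol. The increases took in DREB3, BL3, WRKYIId-4, NPR1 and ARF3. Of these genes, LOC543632 had the smallest standard error, and SDH had the smallest adjusted p. SDH had levels of 10.72, 10.67 and 10.71 in IL-1_1_3 anthers, against 11.90, 12.04 and 12.14 in M82 anthers, a gap of more than a full log2 unit with no overlap (-1.34 ± 0.08, adjusted p = 1.86e-09, limma). LOC543632 had levels of 12.18, 11.92 and 11.95, against 12.71, 12.78 and 12.88 in M82 (-0.76 ± 0.06). Both were lower against all 3 other lines as well, and so was EIL2. No other called gene with a symbol differed from all 3.

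The calls of most named genes rested on every array being present. Left out singly, IL-1_1_3 array 2 left 3 of the 16 genes called, namely SDH, LOC543632 and LOC543740. IL-1_1_3 array 3 and M82 array 6 each left 4, the same 3 genes with CAB6A in the case of IL-1_1_3 array 3 and with EIL2 in the case of M82 array 6. Without M82 array 3 all 16 stayed called. Without the other arrays, between 7 and 10 did.

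Ethylene is a gas hormone of ripening and of anther opening, and EIN3-like proteins such as EIL2 are the transcription factors that carry its signal into the nucleus. EIL2 had levels of 10.79, 10.70 and 10.77 in IL-1_1_3, against 11.31, 11.61 and 11.94 in M82 (-0.86 ± 0.19, adjusted p = 0.0292). The arrays of the line were close together, and the M82 arrays spread over more than 0.6. Its relatives had positive differences that were not called, EIL3 of 0.56 ± 0.19 and EIL4 of 0.50 ± 0.17 (adjusted p = 0.116 each). Of 36 ethylene genes measured, 1 was called, near the 1.97% of all probe sets. Above 0 lay 27, against 54.6% of all probe sets, with a median of 0.17 against 0.03.

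Of 11 photosynthesis genes, 2 were called lower, against 1.03% of all probe sets, and 9 were not called. All 11 differences were negative, as were 4589 of the 10101 over all probe sets, and their median was -0.41, against 0.03. POR2, protochlorophyllide oxidoreductase, which makes a chlorophyll precursor in the light, had levels of 9.11, 8.57 and 9.24 in IL-1_1_3, against 9.50, 9.85 and 10.17 in M82 (-0.83 ± 0.19, adjusted p = 0.0335). CAB6A, a chlorophyll-binding protein of the light-harvesting antenna, had levels of 10.74, 10.01 and 10.78, against 11.01, 11.29 and 11.43 (-0.73 ± 0.15, adjusted p = 0.0232). Neither overlapped M82, as in 100 of all 104 called decreases, and in both array 2 of the line was the lowest. Neither was called against any of the other lines. Those lines lay below M82 as well, though not called. In IL-4_2, IL-7_2 and IL-8_1_1, POR2 had -0.24, -0.45 and -0.12, and CAB6A had -0.36, -0.41 and -0.10.

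PSBP, a protein of the oxygen-evolving complex, lay just outside the threshold, at -0.82 ± 0.21 (adjusted p = 0.0501). PETE, plastocyanin, had -0.74 ± 0.24, and PsbQ, another protein of the oxygen-evolving complex, had -0.33 ± 0.11 (adjusted p = 0.0998 and 0.108). GS2, the plastid glutamine synthetase, which belongs to another list, had -0.75 ± 0.19 (adjusted p = 0.0501), with array 2 of the line again lowest. Taken over the 5 genes fixed as green tissue markers, 2 of which were called, the mean level was 9.59, 8.87 and 9.86 on IL-1_1_3 arrays and 9.72 to 10.45 on M82 arrays. The defining markers CAB4 and CAB5 were not called. The part of green tissue in these differences was not tested. All 5 malate dehydrogenase genes were below 0 as well, as were 4589 of all 10101 probe sets, with a median of -0.33 and none called.

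CRTL-E-1, lycopene epsilon-cyclase, which opens the lutein branch of carotenoid synthesis, was lower, at 6.01, 5.55 and 5.65 in IL-1_1_3 against 6.02, 6.65 and 7.06 in M82 (-0.83 ± 0.18, adjusted p = 0.0284). Its highest array in the line sat just under its lowest in M82. It was called against none of the other lines. Those lines lay below M82 as well, though not called, at -0.48 in IL-4_2, -0.32 in IL-7_2 and -0.23 in IL-8_1_1. CRTL-E-1 was the 1 called gene of 19 in the carotenoid list, where 1.97% of all probe sets were called. Of the others, 16 had positive differences, none called, where 54.6% of all probe sets were above 0. CrtR-b1, a carotene hydroxylase, had 0.90 ± 0.34, ISPE, an enzyme of the plastid precursor pathway, had 0.54 ± 0.19, and NCED1, which cuts carotenoids towards abscisic acid, had 0.46 ± 0.15.

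In the cell wall list, 1 of 42 genes was called, near the 1.97% of all probe sets. XTH16 encodes a xyloglucan endotransglucosylase/hydrolase, an enzyme that cuts and rejoins the xyloglucan chains of the wall. On its brightest probe set it read 9.47, 8.05 and 8.04 in IL-1_1_3, against 9.52, 11.70 and 12.73 in M82. The groups do not overlap, but the lowest M82 array, array 3, was within 0.05 of the highest array of the line. The difference was -2.90 ± 0.60 (adjusted p = 0.0222), and the other 2 probe sets of the gene gave -2.80 ± 0.59 and -2.90 ± 0.61. Of the other lines, the brightest probe set was called against IL-7_2 alone, and the other 2 against none. On the brightest probe set those lines lay below M82 as well, though not called, at -0.62 in IL-4_2, -0.47 in IL-7_2 and -0.86 in IL-8_1_1. Uncalled wall genes included tXET-B2, another enzyme of this family, at -1.60 ± 0.51, TBG7, a beta-galactosidase, at -1.0 ± 0.31, and XYL1 at 0.62 ± 0.20. None of the 9 pectin genes was called.

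WRKYIId-4, DREB3 and BL3 made up 3 of the 5 named increases. Of 24 WRKY, DREB, bZIP, MYB and NAC genes, these 3 were called higher, against 0.941% of all probe sets, and none lower. Above 0 lay 18 of the 24, against 54.6% of all probe sets, with a median of 0.22 against 0.03, and 9 had every IL-1_1_3 array above every M82 array, against 7.46% of all probe sets. WRKYIId-4, a WRKY factor, read 7.92, 7.57 and 7.86 in IL-1_1_3, against 6.50, 6.82 and 7.24 in M82 (0.97 ± 0.23, adjusted p = 0.0392). DREB3, of the family that binds drought-response elements, read 11.91, 12.06 and 12.06, against 11.04, 11.48 and 11.73 (0.56 ± 0.14). It was called against none of the other lines. Those lines lay above M82 at DREB3 as well, though not called, by 0.45 in IL-4_2, 0.26 in IL-7_2 and 0.38 in IL-8_1_1. Of the other lines, WRKYIId-4 was called against IL-4_2 alone and BL3 against IL-7_2 alone. BL3, of the Blind-like MYB family, read 10.40, 10.46 and 10.26, against 9.93, 10.07 and 10.15 (0.31 ± 0.07).

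Uncalled members of that list included NOR, a NAC factor known from fruit ripening, at 0.53 ± 0.14 (adjusted p = 0.0571), THM27, a MYB factor, at 0.57 ± 0.17, and WRKYIId at 0.36 ± 0.13. NPR1, the co-activator of salicylic acid defence, was the 1 called gene of 22 defence genes, where 1.97% of all probe sets were called. It read 9.74, 9.73 and 9.85 in IL-1_1_3, against 9.19, 9.34 and 9.55 in M82 (0.41 ± 0.10, adjusted p = 0.0433). NPR1 was called against none of the other lines. Those lines lay above M82 as well, though not called, by 0.28 in IL-4_2, 0.18 in IL-7_2 and 0.20 in IL-8_1_1. Other defence genes had differences of both signs, CEVI57 of 0.44 ± 0.12, Ve2, a receptor-like protein, of 0.86 ± 0.27 and P69A, a subtilisin-like protease, of -0.64 ± 0.17, none called.

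ARF3, an auxin response factor, gave disagreeing readings. Its probe set Les.2313.2.A1_at was called higher, at 8.16, 8.03 and 8.26 in IL-1_1_3 against 7.33, 7.70 and 7.91 in M82 (0.49 ± 0.12, adjusted p = 0.0387). The brighter probe set Les.2313.1.A1_at, which stands for the gene in its list, had -0.26 ± 0.14 and was not called (adjusted p = 0.301). None of the 9 auxin genes was called through its brightest probe set, and their median was -0.20. IAA16 and IAA3, of the Aux/IAA repressor family, had -0.62 ± 0.23 and -1.07 ± 0.51.

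SODCP.2, a superoxide dismutase of the plastid, was the 1 of 22 redox genes called, near the 1.97% of all probe sets. It read 11.38, 11.17 and 11.45 in IL-1_1_3 against 11.58, 11.90 and 12.03 in M82 (-0.52 ± 0.13, adjusted p = 0.0427). The catalase cat1 had -0.26 ± 0.07 and APX, ascorbate peroxidase, -0.21 ± 0.07, neither called. The LOC genes gave the deepest named decrease. LOC543740 read 4.55, 4.55 and 4.59 in the line, against 5.50, 7.89 and 8.71 in M82 (-3.13 ± 0.55, adjusted p = 0.00598), again with array 3 the lowest of M82. IL-8_1_1 was itself called lower than M82 there, by -2.09 (adjusted p = 0.0446, limma). IL-1_1_3 was not called against IL-8_1_1 (-1.05, adjusted p = 0.649, limma) but was against IL-4_2 and IL-7_2. LOC100037511 had -0.92 ± 0.21 and LOC544060 had -0.71 ± 0.17, with no overlap of the groups in either, as in 100 of all 104 called decreases. Of the other lines, LOC100037511 was called against IL-7_2 alone and LOC544060 against none.

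Other lists held no call in either direction. Among 24 sugar and starch genes, Wiv-1, a cell wall invertase, had 0.83 ± 0.27. AGP-1, placed in that list by its symbol alone, had -0.93 ± 0.31, and the symbol does not settle what it encodes. Among 17 jasmonate genes, loxD, a lipoxygenase, had -1.20 ± 0.45 and MYC2, the factor that carries the jasmonate response, had 0.86 ± 0.40. Among 9 gibberellin genes 20ox-2, a gibberellin oxidase, had -1.28 ± 0.42. Heat shock genes had a median of -0.26 over 10, with Hsp90-1 at -0.88 ± 0.31 and CPN21, a plastid chaperonin, at -0.78 ± 0.26. MKK3, a kinase of MAP kinase cascades, had -0.56 ± 0.16 (adjusted p = 0.0645), and THT7-8, an enzyme that joins tyramine to phenolic acids, had 0.43 ± 0.12. None of these was called. The 7 pollen genes all lay above 0, as did 54.6% of all probe sets, with a median of 0.20 and none called. A difference that misses the threshold is not shown to be absent.

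Light signalling (12 genes), MADS box (9), phenylpropanoids (8), shikimate and amino acids (24), kinases (28), cell cycle (15), transport (30), small GTPases (13) and translation (12) had no call. Their medians lay between -0.07 and 0.11. The lists held 419 genes in all. The abscisic acid list of 9 genes had 1 call, where 1.97% of all probe sets were called. That was DREB3, which it shares with the transcription factor list.

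**Figure D4:**
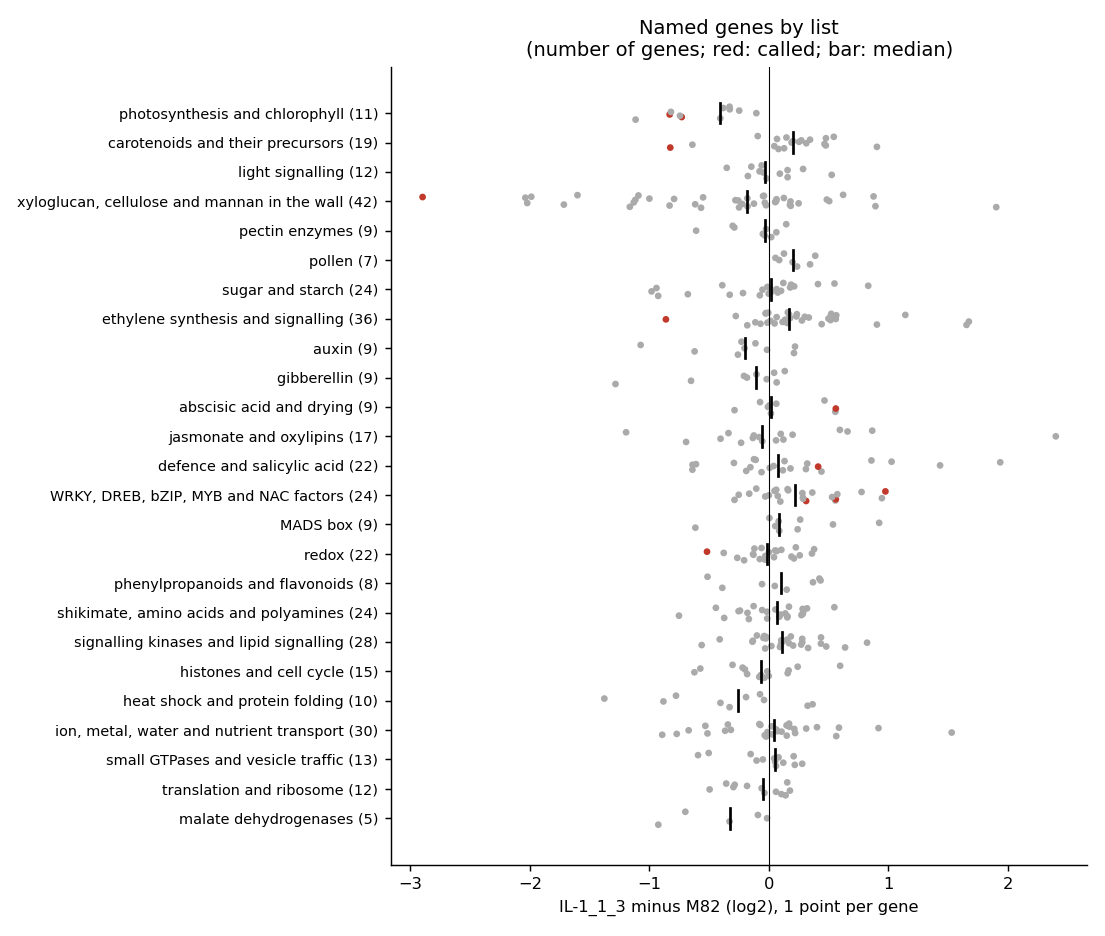
Log2 difference (IL-1_1_3 minus M82, horizontal axis) of each gene in the 25 lists (rows), with called genes in red and the list median as a bar. Every one of the 11 photosynthesis genes lay below 0, and in most other lists the points lay on both sides.

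Many large differences were not called. Of the probe sets at least 2-fold higher or lower in measured level, 93 higher and 176 lower missed the threshold. Of these, 72 had no overlap of the arrays, where 1152 of all 10101 probe sets (11.4%) had no overlap. The SE of those that missed the threshold had a median of 0.542, against 0.234 for the called ones of that size. The largest was Les.863.1.A1_at, which read 11.75, 12.50 and 12.72 in IL-1_1_3, against 11.72, 4.66, 11.68, 11.77, 7.89 and 4.39 on M82 arrays 1 to 6. M82 arrays 1, 3 and 4 read close to the line, and arrays 2, 5 and 6 far below it (log2 difference 3.64, adjusted p = 0.265).

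Les.5052.1.S1_at and LOXB, a lipoxygenase, split the same M82 arrays in the same way. LOXB read 10.82, 10.17 and 11.48 in the line, against 11.08, 5.17, 11.83, 10.72, 6.15 and 5.56 in M82. In the opposite direction, Les.1079.1.S1_at read 5.62, 5.14 and 5.12 in IL-1_1_3, against 10.72, 8.61, 5.39, 7.46, 11.29 and 9.53 in M82 (adjusted p = 0.104). These 4 probe sets were singled out after their values were seen.

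A single direction of variation ran through the arrays of every group. The first principal component of the deviations from the group means, over all 21 arrays, held 59.2% of the within-group variance. On it IL-1_1_3 arrays scored 2.72, 23.56 and 22.04, and M82 arrays 1 to 6 scored -6.76, -34.33, 20.41, 4.20, -28.33 and -40.16. Arrays of the line were on the high side, and M82 array 3 scored like them. The means differed by 30.27, at 16.11 ± 11.62 in IL-1_1_3 (SD, n = 3) and -14.16 ± 23.96 in M82 (SD, n = 6; exact two-sided permutation test, p = 0.0714).

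Across the 10101 probe sets the loading on this component and the log2 difference correlated at r = 0.7329 and rho = 0.7704, as a description, since both come from the same arrays. With the score of each array added to the model, an alternative chosen after seeing the data, 198 probe sets were called, 136 of them among the 199. The median absolute difference over all probe sets was 0.102 with the score and 0.165 without it. For the 33 the medians were 1.277 with it and 1.344 without it, and 32 stayed called. For the other 166 they were 0.525 with it and 0.658 without it, and 104 stayed called. The 33 were picked by further contrasts on these same arrays and had the larger differences. That more of them stayed called is in part built into that choice.

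The array of the line that lay farthest from M82 also differed by set. Among the 166 other calls, array 2 was farthest at 102, array 3 at 48 and array 1 at 16. For the 33 the counts were 13, 9 and 11. Among the 9902 probe sets not called, array 2 was also farthest most often, at 4601, with array 3 at 3607 and array 1 at 1694. There were 21 other settings (normalisations, filters, variance models, a replicate block, the axis score and arrays left out). In all 21, 23 of the 33 were called, and 6 of the 166 were. These settings refit the same arrays on which the 33 were picked by further contrasts. A higher share of the 33 staying called is thus in part built into that choice. A probe set removed by the filter on dim probe sets could not be counted among those called in all 21. Les.840.1.A1_at was removed by it and was called in all 20 settings that tested it. The 6 of the 166 were LesAffx.63979.1.S1_at, LesAffx.65306.1.S1_at and Les.4290.1.S1_at, Les.5829.1.S1_at, LesAffx.6721.1.S1_at and Les.2063.1.A1_at. At Les.4290.1.S1_at and LesAffx.65306.1.S1_at all 3 other lines were called against M82 in the same direction. At Les.5829.1.S1_at, LesAffx.6721.1.S1_at and Les.2063.1.A1_at at least 1 of those lines was. LesAffx.63979.1.S1_at read 6.04, 6.30 and 6.32 in IL-1_1_3, against a range of 7.40 to 7.96 in M82. The 3 named genes among the 33 were SDH, LOC543632 and EIL2, of which the first 2 were called in all 21 settings and EIL2 in 15.

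**Figure D5:**
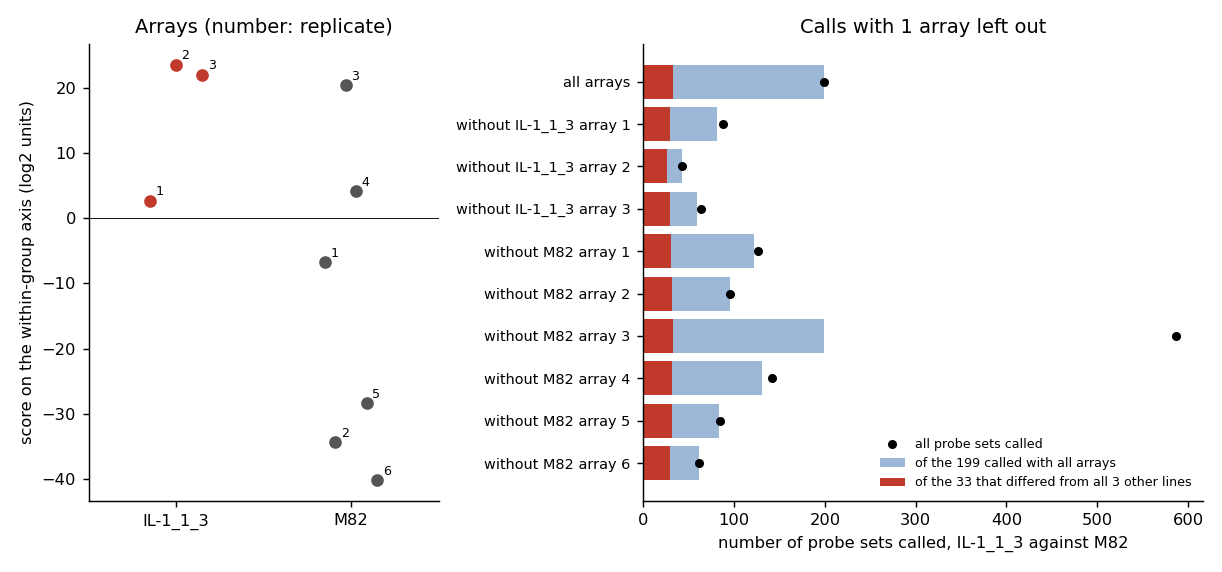
Left, score of each array on the within-group component (numbers are replicates). Right, number of probe sets called (horizontal axis) with 1 array left out (rows): black points give all calls, bars those among the 199, and their red part those among the 33. Between 26 and 33 of the 33 stayed called, and between 17 and 166 of the others.

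No overlap between groups was common. All 3 IL-1_1_3 arrays lay above all 6 M82 arrays at 754 probe sets (7.46%) and below at 398 (3.94%), and of the calls 93 of 95 increases and 100 of 104 decreases were among them. Without M82 array 3 the counts were 1268 above and 1231 below.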

How the data were processed

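Total RNA from anthers was labelled with biotin and hybridised, per the labels' protocols. The authors deposited 1 log2 value per probe set and array, made with affy, per the submitters' processing notes; for its version, the summary method and the normalisation, the sources used here give nothing. The log2 scale was inferred from the value range, and array medians of IL-1_1_3 and M82 (9.49 to 9.53) are nearly equal. Array values carry no depth, so the number of arrays limits the precision. The table held 10209 probe sets; the AFFX controls were left out and the 63 reporters kept. Groups came from the titles. The labels give no batch or scan date, so none was tested.

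A model of 5 groups over 21 arrays (16 residual degrees of freedom) was fitted with lmFit and eBayes of limma 3.58.1 in R 4.3.3, on the deposited log2 values, and tested on simulated data. P-values were adjusted over all probe sets by Benjamini-Hochberg. Errors beside differences are standard errors. Named are all called genes, called list members with up to 3 uncalled ones, markers, and unnamed probe sets by size, p or level. A gene with several probe sets was described through the brightest. Members, lists and rules were chosen with earlier results of these data known, and list symbols were fixed after the annotation was seen. Symbols come from the platform annotation, which can be old.

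Alternatives were other normalisations, a filter on dim probe sets, variance models, array weights, a replicate block, single arrays left out, and the axis score.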

Additional observations from a re-analysis of the deposited data

Results flagged for a closer look

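On LOC543740, probe set Les.3560.1.S1_at, M82 array 3 read 5.505, apart from the other M82 arrays, which read 7.677 to 8.709. The gene was called lower in IL-1_1_3, whose arrays read 4.552, 4.548 and 4.593. On LesAffx.14638.1.S1_at the same array read 8.513, below 8.734 to 8.856 on the other M82 arrays and above 6.403, 6.137 and 6.46 in IL-1_1_3. Among 41 called and named probe sets looked at, 2 had an M82 array apart in this way, where chance gives about 1 in 20.

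The 33 probe sets that were called in the same direction against M82 and against each of the 3 other lines are marked because the difference between the lines was itself tested. Relative to M82, the same probe sets lay between -0.45 and 0.82 on the log2 scale in the other lines. The rule that chose the 33 keeps those lines away from IL-1_1_3, so this range is in part fixed by the choice.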

How the results depend on the processing

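The count of calls, 199, became 86 with the arrays of IL-1_1_3 and M82 alone, 2525 with array weights, 1917 when IL-7_2 array 2, IL-4_2 array 3 and M82 array 3 were left out together, and 43 at an adjusted p of 0.01. The count with at least a 2-fold difference, 54, became 34, 342, 345 and 29 in the same order. Leaving out 1 array at a time gave 43 to 587 calls and 29 to 175 with at least a 2-fold difference; M82 array 3 gave the highest of both and IL-1_1_3 array 2 the lowest. The 33 probe sets called against all groups became 52 (10 higher, 42 lower) with the axis score, chosen after seeing the data. Quantile or cyclic loess normalisation, the filter on dim probe sets, the variance trend, robust variance, the unmoderated test and leaving out reporters kept the count of calls between 173 and 215. No called and named probe set changed direction in any setting. Among uncalled list members, PGH1 had 0.04 with the axis score, against -0.05, and TAPG2 had 0.03 without M82 array 3, alone or with the other 2 arrays, against -0.30. The cause of these shifts was not tested.

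Replicate numbers are shared by IL-1_1_3 and M82 arrays 1 to 3, whose deviations correlated at -0.187, 0.029 and 0.178, and no array of the line correlated best with its own number. With the number as a replicate block, 32 probe sets were called (8 higher, 24 lower), 24 of them with at least a 2-fold difference, and 25 of the 33 were among them. The numbers are not taken to pair the arrays. Few arrays of the line and the missing detection calls limit what dim probe sets can show.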
